A study of Mus musculus with 15 samples.

Results

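The Hes and Hey genes encode transcriptional repressors of the basic helix-loop-helix class. The 7 genes followed here were Hes1, Hes5, Hes6, Hes7, Hey1, Hey2 and Heyl, out of 18193 genes that had a probe set carrying their symbol alone. They were listed by name, with earlier results of these data known, and had 11 probe sets on the array. The probe set with the highest mean over all 15 arrays stood for each gene, and the 4 other probe sets (1 each for Hes5 and Hes6 and 2 for Heyl) served as a check.

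Expression was measured on Affymetrix mouse arrays in 5 groups of 3 biological replicates of mouse embryonic stem (ES) cells or cells derived from them. ES cells at day 0 were line E14 (strain 129P2), unsorted, kept with serum and LIF and treated with 2i, the inhibitors CHIRON99021 and PD0325901. The maintenance cultures were grown on inactivated fibroblasts. Differentiation in the other 4 groups was serum-free. It began with 2 days of BMP4 (10 ng/ml), after which the cells were moved to knockout serum replacement medium. That medium held LDN (0.1 µM), which blocks BMP receptors, and DMSO (0.5%). In CDL medium the GSK3 inhibitor CHIRON99021, which activates Wnt signalling, was present at 1 µM, and in RDL medium the Wnt agonist Rspo3 at 10 ng/ml. The CDL and RDL day 4 groups were line E14 cells sorted as positive for the Msgn1-repV reporter of presomitic mesoderm. The CDL and RDL day 6 groups were line CK35 cells (strain 129Sv) sorted as positive for Pax3-GFP, a reporter of anterior presomitic mesoderm and somite. Day 6 therefore differed from day 4 in time, line, strain and sort, and these cannot be told apart. ES cells differed from the other groups in medium and sort too. The labels give the LDN compound under more than 1 catalogue number.

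In the presomitic mesoderm of the vertebrate embryo, Notch signalling between neighbouring cells switches on Hes and Hey genes, and their products repress transcription, in several cases their own. Delayed negative feedback of this kind makes expression rise and fall in the segmentation clock, which sets the pace of somite formation. Hes7 is the core repressor of the mouse clock and is largely restricted to presomitic mesoderm, whereas Hes1 and the Hey genes are also expressed in many other tissues. An array of a sorted cell population averages over many cells at a single time, so these values are levels. The phases of the clock in those cells were not measured, and the values do not show oscillation.

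RefSeq promoter windows, from 250 bases before to 50 bases after the gene start (build GRCm38.p6), were at hand for 4 of the 7 genes. The windows of Hes7, Hes5 and Hey2 are shown because they hold the core of the site bound by RBPJ, the DNA-binding protein through which Notch acts. Capitals mark TGGGAA or its reverse complement on the strand shown, which is that of the gene.
Hes7 (chr11:69120203-69120502, plus strand): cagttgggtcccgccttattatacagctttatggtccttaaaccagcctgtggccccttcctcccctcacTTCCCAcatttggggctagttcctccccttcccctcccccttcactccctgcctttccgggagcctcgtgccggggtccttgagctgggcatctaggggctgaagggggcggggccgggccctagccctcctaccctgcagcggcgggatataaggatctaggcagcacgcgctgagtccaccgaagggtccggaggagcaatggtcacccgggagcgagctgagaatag
Hes5 (chr4:154960673-154960972, plus strand): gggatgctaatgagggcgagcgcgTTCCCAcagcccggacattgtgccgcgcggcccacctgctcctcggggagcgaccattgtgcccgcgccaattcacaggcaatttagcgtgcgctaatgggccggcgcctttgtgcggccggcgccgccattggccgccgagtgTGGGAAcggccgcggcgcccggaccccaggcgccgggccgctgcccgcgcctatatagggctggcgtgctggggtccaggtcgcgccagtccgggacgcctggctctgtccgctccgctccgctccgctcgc
Hey2 (chr10:30842734-30843033, minus strand): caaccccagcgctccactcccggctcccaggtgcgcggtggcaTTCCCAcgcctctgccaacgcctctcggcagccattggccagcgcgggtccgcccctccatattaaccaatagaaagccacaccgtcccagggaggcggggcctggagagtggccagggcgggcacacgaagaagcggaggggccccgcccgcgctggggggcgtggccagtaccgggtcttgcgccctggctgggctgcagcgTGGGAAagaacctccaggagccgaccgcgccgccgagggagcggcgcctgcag

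Hes7 held 1 match to TGGGAA, 180 bases before its start. Hes5 held 2, at 226 and 82 bases before the start, and Hey2 held 2, at 207 and 3 bases before the start. The 2 windows of Hes6 (chr1:91413173-91413472 and chr1:91413989-91414288, minus strand) held 0. Searched on both strands, 25.6% of all 32851 promoter windows held TGGGAA and 6.38% held the longer GTGGGAA, which contains it. Every match in the 3 genes was also a match to GTGGGAA. The motif bound by Hes proteins, CACNAG, was matched once in Hes7, at 116 bases before the start, and 2 times in the first Hes6 window, and 42.5% of all windows held it. The related CACGNG, whose matches can overlap those of CACNAG, was matched at the same position in Hes7 and at 14 bases before the start, and 1 time in the second Hes6 window, and 27.5% of windows held it. Hes5 and Hey2 held 0 matches to either. Such matches are letters in a window and were not tested for binding.

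The median signal of an array was 29.4 to 31.2, and no array was a copy of another (0 identical pairs). An array of the CDL day 4 group, replicate 1, stood apart. Over 10 markers of naive ES cells its signal lay a median of 23.8% of the way (range 17.5 to 51.8%) from the other arrays of its group to the ES mean. That median was between -0.417 and 0.743% in the other 11 arrays of sorted cells. In RDL day 6 replicate 1 the mean correlation with the other 2 arrays of the group was 0.978, the lowest of the 15, and the 3' to 5' ratio of actin was 1.90, the highest. Values without these arrays are given below where leaving out either or both changes a call or a direction of a member between groups. Markers of posterior presomitic mesoderm summed to 10931 to 12681 in CDL day 4 arrays and 9793 to 10972 in RDL day 4 arrays. At day 6 the anterior presomitic and somite list summed to 5186 to 8009 in CDL and 3471 to 5814 in RDL arrays. In ES arrays the lists summed to 236 to 253 and 314 to 356. The posterior list holds Msgn1 and the anterior list Pax3, the genes of the sort reporters. Not every member rose. Mesp2 averaged 44.4 in CDL and 44.3 in RDL day 6 against 55.4 in ES cells, and Ripply2 8.70 and 6.88 against 6.01. The anterior sum in RDL day 4 arrays, 3321 to 3666, overlapped that of RDL day 6.

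Hes7 was high at day 4 in both media, and at day 6 it overlapped the ES arrays. Its signal was 34.4, 24.1 and 40.9 in ES arrays. At day 4 it was 465.1, 549.1 and 808.0 in CDL arrays and 661.1, 554.5 and 615.6 in RDL arrays. At day 6 it was 34.2, 39.6 and 34.1 in CDL arrays and 30.0042, 30.9 and 27.4 in RDL arrays. All 6 day 4 arrays lay above every other array, and the ES and day 6 ranges overlapped for CDL and for RDL. On the scale log2(signal + 12.6) used for every difference below, limma gave 3.74 ± 0.17 (SE) for CDL day 4 minus ES (adjusted p = 5e-11) and 3.78 ± 0.17 for RDL day 4 minus ES (adjusted p = 4e-11). In a sorted population, fewer expressing cells and less RNA per cell cannot be told apart.

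Between the days Hes7 fell in both media. CDL day 6 minus CDL day 4 was -3.64 ± 0.17 (adjusted p = 1.5e-10) and RDL day 6 minus RDL day 4 was -3.89 ± 0.17 (adjusted p = 6.1e-11). Against ES cells the day 6 groups differed by 0.10 (95% interval -0.26 to 0.46) in CDL and -0.11 (-0.47 to 0.26) in RDL. Between media no difference was called. CDL minus RDL was -0.04 at day 4 (-0.40 to 0.32) and 0.21 at day 6 (-0.15 to 0.57). Without CDL day 4 replicate 1 the day 4 value was 0.13 (adjusted p = 0.877). The CDL day 4 arrays spread more (SD 179, n = 3) than the RDL day 4 arrays (SD 53.5, n = 3), and the lowest of them was replicate 1. Profiles were compared here and below with tested genes outside the family, passing over Riken clones and predicted genes. Tbx6 and Cited1, both transcription regulators of presomitic mesoderm, and Synm followed Hes7 most closely over the 15 arrays (Pearson r = 0.99 each). These arrays fall into a high cluster at day 4 and a low one elsewhere.

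Hes1, the most widely used Notch effector of the family, was higher in all 4 differentiated groups than in ES cells and highest in CDL at day 6. Its signal was 188.0, 190.4 and 219.5 in ES arrays. CDL day 4 arrays gave 203.2, 417.5 and 447.6 and RDL day 4 arrays 227.9, 439.2 and 538.0. CDL day 6 arrays gave 695.1, 953.4 and 719.3 and RDL day 6 arrays 394.8, 477.4 and 596.8. Each group at day 4 held 1 array near the ES values, and the lowest CDL array lay within the ES range. The CDL day 6 arrays lay above all 12 others.

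Against ES cells, Hes1 differed by 0.73 ± 0.29 in CDL day 4 (adjusted p = 0.0454 in limma) and 0.89 ± 0.29 in RDL day 4 (adjusted p = 0.0164). Without CDL day 4 replicate 1, which carried ES marker signal, the CDL day 4 difference was 1.07 (adjusted p = 0.00259). The CDL day 4 difference was past the threshold in 15 of 27 alternative settings, with adjusted p up to 0.187. The RDL day 4 call was lost without RDL day 4 replicate 2 (0.78, adjusted p = 0.0636) or replicate 3 (0.64, adjusted p = 0.0955). The day 6 differences from ES were 1.91 ± 0.29 in CDL (adjusted p = 3.1e-05) and 1.23 ± 0.29 in RDL (adjusted p = 0.00172). CDL day 6 minus CDL day 4 was 1.18 ± 0.29 (adjusted p = 0.0047), while RDL day 6 minus RDL day 4 was 0.34 (95% interval -0.28 to 0.96). The difference between those changes, which is also the interaction of medium and day, was 0.84 ± 0.41 and was not called (adjusted p = 0.341).

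Between media Hes1 was not called at either day. At day 6 CDL minus RDL was 0.68 (0.06 to 1.30, adjusted p = 0.208), although the 3 CDL arrays lay above the 3 RDL arrays. With the replicate number as a block it was past the threshold (adjusted p = 0.0468). At day 4 CDL minus RDL was -0.16 (-0.78 to 0.46), and 0.19 without CDL day 4 replicate 1 (adjusted p = 0.887), in the opposite direction. Btg1, an inhibitor of proliferation, had the profile most like that of Hes1 (r = 0.97 over 15 arrays), followed by Akap7 and Camk2g (0.93 each).

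Hes5, a Notch target best known from neural progenitors, had a low signal in all groups, above the array median in 15 of 15 arrays, and its probe sets disagreed in sign. The brighter one had signals of 50.1, 40.7 and 39.9 in ES arrays. At day 4 it read 36.0, 37.5 and 43.6 in CDL and 37.5, 36.2 and 42.5 in RDL, and at day 6 51.1, 36.1 and 47.4 in CDL and 45.4, 40.4 and 42.0 in RDL. The 5 groups overlapped, and no comparison was called. The largest of the 8 differences between groups was 0.15 (95% interval -0.08 to 0.38) for CDL day 6 minus CDL day 4.

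The second Hes5 probe set, of the _x_at kind that Affymetrix marks as able to bind other transcripts, gave 18.8, 20.7 and 20.4 in ES arrays. CDL day 4 arrays gave 18.7, 34.6 and 37.7 and RDL day 4 arrays 22.4, 31.9 and 44.9. At day 6 the signals were 19.6, 24.1 and 21.2 in CDL and 17.8, 18.3 and 18.0 in RDL arrays. It exceeded the array median in 4 of 15 arrays, all of them at day 4. There RDL day 4 minus ES was 0.46 (adjusted p = 0.0265) and RDL day 6 minus RDL day 4 was -0.55 (adjusted p = 0.0194), while CDL day 4 minus ES was 0.37 and not called (adjusted p = 0.0697). The brighter probe set had the opposite sign in both of the called comparisons (-0.13 and 0.11), so no direction is given for Hes5. Its nearest profiles, Slco2b1 (r = 0.84), Prkaa1 and Rps7 (0.83 each), were less close than those of any other gene of the family.

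Hes6 is an unusual member that does not respond to Notch in the manner of Hes1 and can antagonise it. It was higher in every differentiated group than in ES cells, and its chosen probe set varied least within groups among those of the 7. Its signal was 64.1, 56.1 and 62.5 in ES arrays. At day 4 it was 163.8, 141.6 and 138.6 in CDL arrays and 119.6, 102.8 and 115.4 in RDL arrays. At day 6 it was 166.0, 169.1 and 173.2 in CDL arrays and 139.6, 142.5 and 140.4 in RDL arrays. The CDL arrays lay above the RDL arrays of the same day, without overlap, at both days. Against ES cells limma gave 1.13 ± 0.09 in CDL day 4, 0.77 ± 0.09 in RDL day 4, 1.31 ± 0.09 in CDL day 6 and 1.06 ± 0.09 in RDL day 6, with adjusted p from 6e-09 to 3.1e-06.

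In Hes6, CDL minus RDL was 0.36 ± 0.09 at day 4 (adjusted p = 0.0399). That call was lost when CDL day 4 replicate 1, the highest array, was left out (0.29, adjusted p = 0.196), and it was past the threshold in 12 of 27 alternatives, with adjusted p up to 0.201. At day 6 the difference was 0.25 ± 0.09 and was not called (adjusted p = 0.139). RDL day 6 minus RDL day 4 was 0.30 ± 0.09 (adjusted p = 0.0244) and CDL day 6 minus CDL day 4 was 0.18 (95% interval -0.01 to 0.38, adjusted p = 0.13). The CDL difference was past the threshold without both arrays that stood apart (0.25, adjusted p = 0.0488), with quantile normalization (0.26, adjusted p = 0.0418) and with array weights (0.23, adjusted p = 0.0318). The RDL call was lost without RDL day 4 replicate 2 (0.24, adjusted p = 0.117), RDL day 6 replicate 2 (0.29, adjusted p = 0.0605) or RDL day 6 replicate 3 (0.30, adjusted p = 0.0526). It was also lost when limma was fitted to only the groups compared (adjusted p = 0.0869). The chosen Hes6 probe set is of the _x_at kind. The second gave the same 4 calls against ES cells (0.59 to 1.07) and the same sign in these comparisons, with none of them called. The profiles most like Hes6 were those of Kif21a, Crispld1 (0.96 each) and Slc35f5 (0.95).

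**Figure D1:**
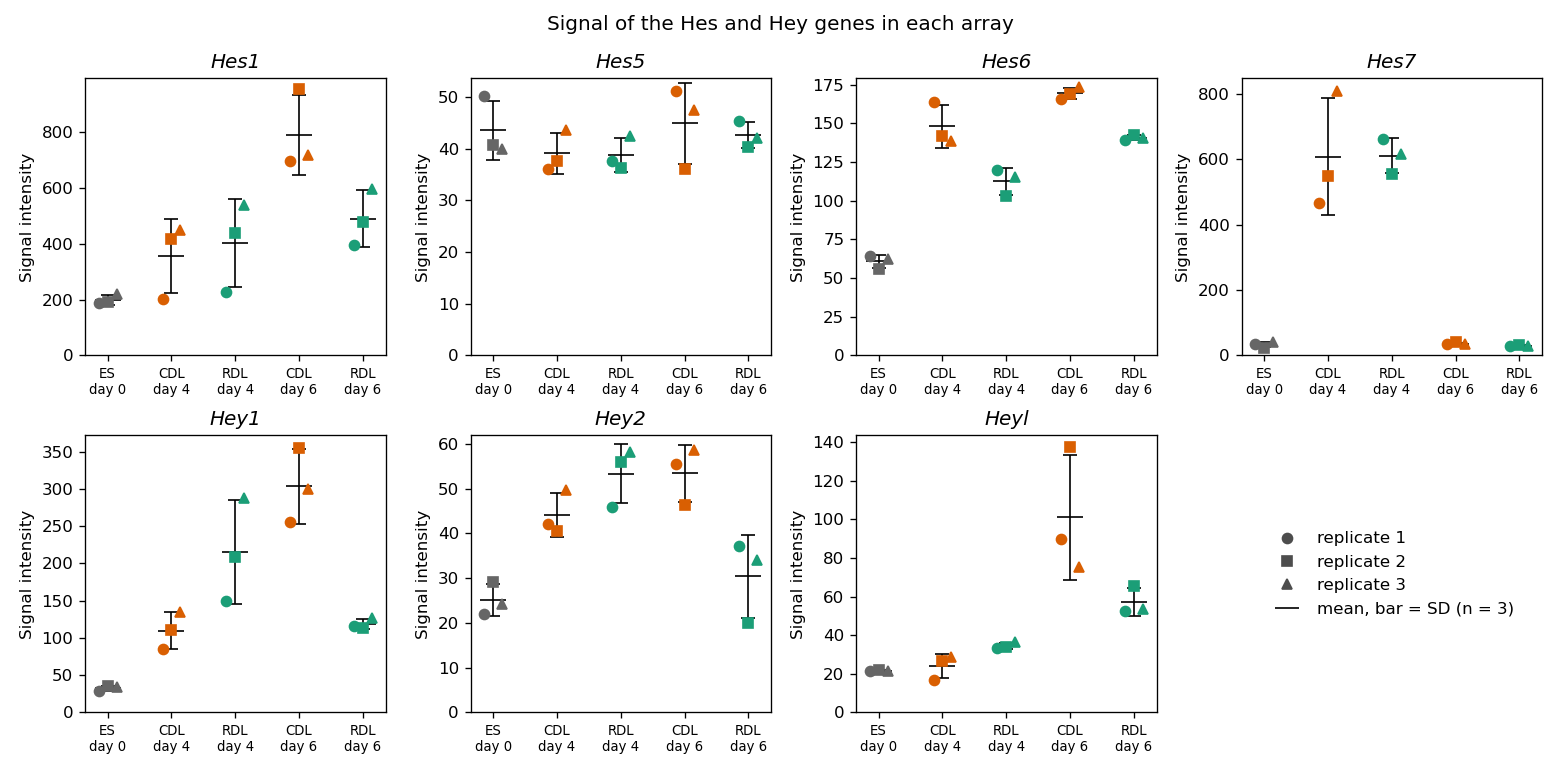
Signal intensity (linear axis from 0) of the 7 genes in each of the 15 arrays, with symbols for replicate number and bars for the group mean ± SD (n = 3). Hes7 is 465.1 or higher in all 6 day 4 arrays and 40.9 or lower in the other 9, and Hey1 has its highest group mean, 304, in CDL at day 6.

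Hey1, a Notch target of mesoderm and the vascular system, rose against ES cells in all 4 differentiated groups, and the order of the media turned round between the days. Its signal was 29.0, 34.9 and 33.9 in ES arrays. CDL day 4 arrays gave 84.6, 110.1 and 134.9 and RDL day 4 arrays 149.3, 209.1 and 288.2. CDL day 6 arrays gave 255.2, 355.5 and 300.4 and RDL day 6 arrays 116.3, 113.5 and 126.1. At day 4 all CDL arrays lay below all RDL arrays, and at day 6 all CDL arrays lay above all RDL arrays. The mean ± SD was 110 ± 25.2 in CDL day 4 and 216 ± 69.7 in RDL day 4, and 304 ± 50.2 in CDL day 6 and 119 ± 6.63 in RDL day 6 (n = 3 each).

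CDL minus RDL for Hey1 was -0.87 ± 0.19 at day 4 (adjusted p = 0.0149) and 1.26 ± 0.19 at day 6 (adjusted p = 0.000514). The difference between these, the interaction of medium and day, was 2.13 ± 0.27 (adjusted p = 0.000159). The day 6 difference and the interaction were past the threshold in all 27 alternative settings. The day 4 difference was past it in 23, and it was lost without CDL day 4 replicate 1 (-0.72, adjusted p = 0.0722), RDL day 4 replicate 2 (-0.87, adjusted p = 0.0558) or RDL day 4 replicate 3 (-0.65, adjusted p = 0.0735). Fitting limma to only the groups compared lost it too (adjusted p = 0.0827). With both arrays that stood apart left out it was called (-0.72, adjusted p = 0.044). CDL day 6 minus CDL day 4 was 1.38 ± 0.19 (adjusted p = 3.8e-05) and RDL day 6 minus RDL day 4 was -0.75 ± 0.19 (adjusted p = 0.00723). Against ES cells the differences were 1.42 in CDL day 4, 2.29 in RDL day 4, 2.80 in CDL day 6 and 1.54 in RDL day 6, each called. Ifnar2 (r = 0.97), the linker histone gene H1f2 (0.96) and the serine synthesis gene Phgdh (0.95) had the most similar profiles over the 15 arrays.

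Hey2, which with Hey1 acts downstream of Notch in heart and vessels, was higher in CDL than in RDL at day 6. Its signal was 22.1, 29.1 and 24.3 in ES arrays. At day 4 it was 42.1, 40.5 and 49.7 in CDL arrays and 45.8, 56.0 and 58.2 in RDL arrays. At day 6 it was 55.5, 46.3 and 58.6 in CDL arrays and 37.2, 19.9 and 34.0 in RDL arrays. The media overlapped at day 4 and did not at day 6, and no ES array passed the array median. CDL minus RDL was -0.22 at day 4 (95% interval -0.52 to 0.09, not called) and 0.64 ± 0.14 at day 6 (adjusted p = 0.0098), and the interaction was 0.86 ± 0.20 (adjusted p = 0.0186). Fitting limma to only the groups compared lost the day 6 call (adjusted p = 0.0762). The interaction was not called, with adjusted p of 0.0501 to 0.0549, when RDL day 4 replicate 2 or 3, CDL day 4 replicate 2 or CDL day 6 replicate 3 was left out.

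Hey2 was higher than in ES cells in CDL day 4 (0.59), RDL day 4 (0.80) and CDL day 6 (0.81), and in RDL day 6 the difference was 0.17 (-0.14 to 0.47, not called). Without RDL day 6 replicate 2, the lowest array, that last difference was 0.36 (adjusted p = 0.0201). RDL day 6 minus RDL day 4 was -0.64 ± 0.14 (adjusted p = 0.00283) and CDL day 6 minus CDL day 4 was 0.22 (-0.08 to 0.52, not called). Pemt, an enzyme of phosphatidylcholine synthesis, had the most similar profile (r = 0.95), followed by Skil (0.91) and Rflna (0.89).

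Heyl, the third Hey gene, was highest at day 6, and in CDL day 4 it was not called against ES cells. Its signal was 21.6, 21.9 and 21.6 in ES arrays. CDL day 4 arrays gave 16.8, 26.8 and 28.5 and RDL day 4 arrays 33.1, 34.1 and 36.2. CDL day 6 arrays gave 90.0, 137.5 and 75.5 and RDL day 6 arrays 52.5, 65.4 and 53.7. All CDL arrays lay below all RDL arrays at day 4 and above them at day 6. Heyl exceeded the array median in the 9 arrays of RDL day 4 and both day 6 groups, so it was tested through the groups in which it was high.

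For Heyl, CDL minus RDL was -0.38 ± 0.16 at day 4 (adjusted p = 0.267, not called) and 0.67 ± 0.16 at day 6 (adjusted p = 0.0157), and the interaction was 1.05 ± 0.23 (adjusted p = 0.0112). The day 6 call was lost without RDL day 6 replicate 3 (0.64, adjusted p = 0.062). It was also lost when limma was fitted to only the groups compared (adjusted p = 0.12). Day 6 minus day 4 was 1.61 ± 0.16 in CDL (adjusted p = 1e-06) and 0.56 ± 0.16 in RDL (adjusted p = 0.0138), and the RDL call was lost without RDL day 6 replicate 2 (0.48, adjusted p = 0.0551). Against ES cells limma gave 0.08 in CDL day 4 (95% interval -0.26 to 0.42), 0.46 in RDL day 4, 1.69 in CDL day 6 and 1.02 in RDL day 6. The RDL day 4 call had an adjusted p of 0.0228, and of 0.0511 to 0.0653 when any ES array or RDL day 4 replicate 3 was left out. The next probe set of Heyl read 74.0, 85.8 and 64.1 in CDL day 6 and 44.7, 61.7 and 53.7 in RDL day 6, and between 22.8 and 40.3 in the other 9 arrays. It gave both day 6 minus day 4 calls (1.02 in CDL and 0.66 in RDL), but its RDL day 4 minus ES difference was -0.15 and not called. Its CDL minus RDL at day 6 (0.40, adjusted p = 0.125) and its interaction (0.36, adjusted p = 0.452) were not called either. The third probe set never exceeded the array median. Arhgap42 (r = 0.98), Pax3 and the FGF feedback inhibitor Spry1 (0.97 each) had the profiles most like Heyl. Pax3 is the gene whose reporter was used to sort the day 6 cells.

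**Figure D2:**
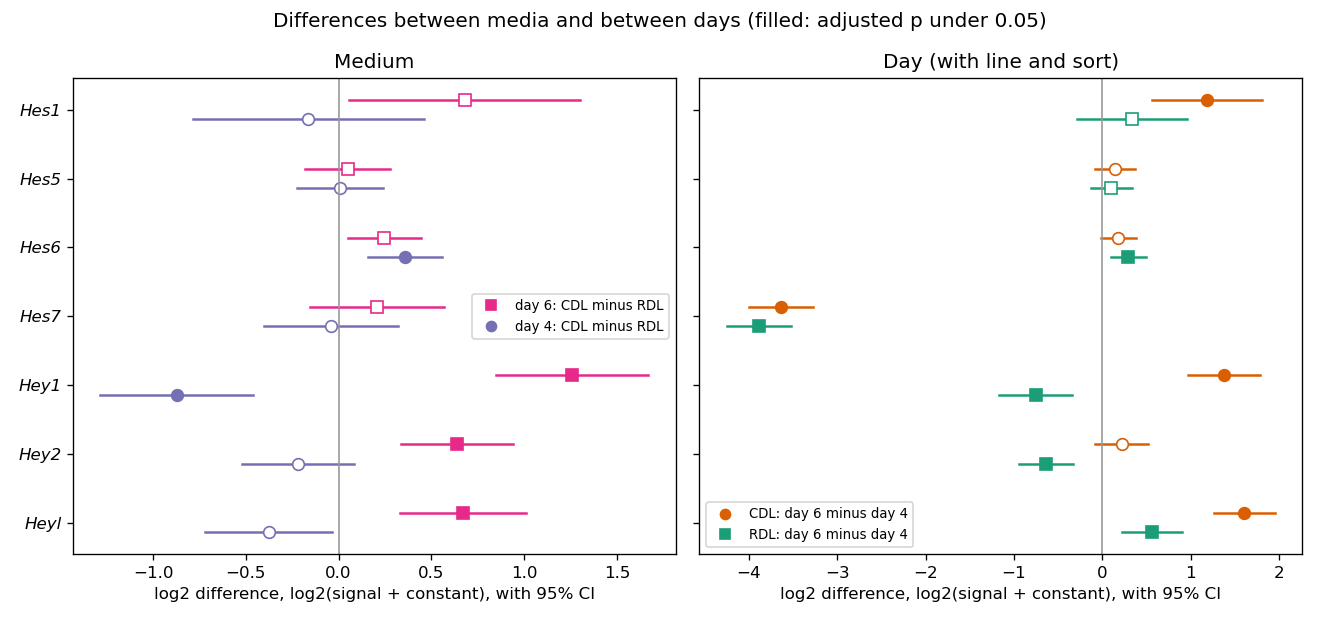
Differences of the 7 genes on the log2(signal + 12.6) scale with 95% intervals, CDL minus RDL at each day on the left and day 6 minus day 4 in each medium on the right, filled where adjusted p was under 0.05. For Hey1 the medium difference is 1.26 at day 6 and -0.87 at day 4, and Hes7 lies at -3.64 in CDL and -3.89 in RDL between days.

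Counted over the family, 5 of 7 genes were called higher and 0 lower in CDL day 4 than in ES cells. Of the 12400 genes tested, 26.6% were called higher and 29.6% lower there. In RDL day 4, 6 were called higher and 0 lower (27.6% and 29.5% of all genes). In CDL day 6, 5 were called higher and 0 lower (27.8% and 33.3% of all genes). In RDL day 6, 4 were called higher and 0 lower (28.3% and 33.3% of all genes). These 4 comparisons share the ES arrays, so their counts are not separate evidence. All 7 genes passed the filter on dim probe sets, but Heyl and Hey2 did so through the groups in which they were high, with 0 of 3 ES arrays above the filter.

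Between media at day 4, 2 of 7 were called, Hes6 higher and Hey1 lower in CDL, against 2.9% of all genes higher and 1.52% lower. At day 6, 3 of 7 were called (Hey1, Hey2 and Heyl), all higher in CDL, against 3.68% of all genes higher and 3.94% lower. The interaction called Hey1, Hey2 and Heyl too, all positive, against 2.31% of all genes positive and 3.08% negative. CDL day 6 minus CDL day 4 called 3 members higher and 1 lower, against 17.4% of all genes higher and 22% lower. RDL day 6 minus RDL day 4 called 2 members higher and 3 lower, against 13.8% of all genes higher and 17.2% lower. The median of the 7 differences was 0.64 for CDL minus RDL at day 6 and -0.16 at day 4, where it was 0.00 over all genes tested at both days. Without both arrays that stood apart, the medium comparison called 3 members at day 6 and 1 at day 4, and the interaction called 3.

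Summed signals of several marker lists differed between media. The posterior presomitic markers summed to 909 to 1253 in CDL day 6 arrays and 407 to 531 in RDL day 6 arrays, with 6 of 7 above the array median in CDL and 5 or 6 in RDL. At day 4 the anterior presomitic and somite markers summed to 1163 to 1824 in CDL and 3321 to 3666 in RDL arrays, with 6 of 8 above the array median in CDL and 8 of 8 in RDL. Their part in the Hey1, Hey2 and Heyl differences was not tested. The neural crest list summed to 545 to 807 in CDL day 6 and 556 to 1163 in RDL day 6, and the fibroblast list to 5192 to 7064 in CDL day 6 and 7738 to 10086 in RDL day 6. Most of the neural crest signal was that of Ets1, with means of 587 in CDL day 6 and 829 in RDL day 6. The means were 54.3 and 51.8 for Sox10, 25.1 and 28.7 for Tfap2a and 11.6 and 11.3 for Foxd3. The fibroblast list holds collagen genes that mesoderm also expresses, and Col3a1 averaged 4312 in CDL day 6 and 6794 in RDL day 6. Among members that are not collagens, mean signals in CDL and RDL day 6 were 38.7 and 224 for Lum, 22.2 and 44.7 for Postn. They were 94.4 and 110 for Dcn and, in the other direction, 21.4 and 16.6 for Thy1. The endothelial list summed to 132 to 163 in CDL day 6 and 235 to 242 in RDL day 6, without overlap, and 1 of its 6 genes was above the array median in each. Kdr, a receptor of endothelial cells and their precursors, read 68.2 ± 18.2 in CDL day 6 and 145 ± 10.2 in RDL day 6 (SD, n = 3 each), while Cdh5, Tie1 and Erg were dim. The neural list summed to 902 to 1152 in CDL day 6 and 514 to 892 in RDL day 6, also without overlap, with 5 of 6 genes above the array median in CDL and 4 or 5 in RDL. Its members did not move together. Mean signals in CDL and RDL day 6 were 493 and 266 for Ncam1 and 237 and 155 for Sox2. They were 167 and 227 for Nes, 37.5 and 33.2 for Sox1 and 38.1 and 38.9 for Pax6, and Neurog2 was dim. The part of these lists in the day 6 differences was likewise not tested.

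Of 6 Notch ligands tested, 4 were called higher than in ES cells and 0 lower in each medium at day 4, with medians of 1.26 in CDL and 1.36 in RDL. The shares of all genes tested were 26.6% higher and 29.6% lower in CDL day 4, and 27.6% and 29.5% in RDL day 4. Dll1, the main activating ligand of presomitic mesoderm, read 20.5, 25.2 and 21.7 in ES arrays. The day 4 signals were 1629, 2467 and 2674 in CDL and 2354, 2519 and 2186 in RDL arrays. The day 6 signals were 299.5, 529.4 and 314.9 in CDL and 44.1, 104.6 and 85.0 in RDL arrays. The media overlapped at day 4, and at day 6 all CDL arrays lay above all RDL arrays. The CDL minus RDL difference was 2.14 ± 0.25 at day 6 (adjusted p = 4.3e-05) and -0.09 at day 4, and the interaction was 2.23 ± 0.36 (adjusted p = 0.00121).

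Dll3, a ligand that acts inside the cell to dampen Notch, was 4.25 higher in CDL day 4 and 4.20 higher in RDL day 4 than in ES cells. At day 6 it was 0.79 higher in CDL than in RDL (adjusted p = 0.00889). Jag1 differed from ES cells by 0.90 in CDL day 4 and 0.97 in RDL day 4 and fell between days, with day 6 minus day 4 at -1.22 in CDL and -1.15 in RDL. Dlk1, a non-canonical ligand, was lower in CDL at day 6, with signals of 216.2, 374.4 and 255.3 in CDL day 6 arrays and 740.5, 1511 and 1476 in RDL day 6 arrays. The difference at day 6 was -2.06 ± 0.26 (adjusted p = 8.2e-05), and its interaction was -1.93 (adjusted p = 0.00469). Dll4 and Jag2 were called in none of the 9 comparisons.

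All 4 Notch receptors were tested. In CDL day 4, 3 were called higher than in ES cells and in RDL day 4, 4 were, with medians of 1.26 and 1.47. Of all genes tested, 26.6% were higher in CDL day 4 and 27.6% in RDL day 4. Notch1, the principal receptor of the presomitic mesoderm, read 726.6, 1231 and 599.8 in CDL day 6 arrays and 254.4, 460.9 and 392.0 in RDL day 6 arrays. CDL minus RDL for Notch1 was 1.15 ± 0.23 at day 6 (adjusted p = 0.00407) and -0.01 at day 4, with an interaction of 1.16 (adjusted p = 0.0469). RDL day 6 replicate 1, which stood apart, held the lowest RDL day 6 signal of Notch1, Dll1, Dll3, Dlk1 and Nrarp. Medium differences of these genes without that array are not given here. Between day 6 and day 4, Notch1 and Notch4 fell in both media, with Notch4 at -1.45 in CDL and -1.42 in RDL. Notch2 and Notch3 were called in neither.

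Of 6 tested nuclear partners, 2 were higher and 2 lower than in ES cells at day 4 in both media. Nrarp, a Notch target that feeds back to limit the pathway, was 4.08 higher in CDL day 4 and 4.52 higher in RDL day 4, and Maml1, a coactivator, 1.19 and 1.22 higher. Rbpj itself differed by -1.22 in each medium. The acetyltransferase gene Kat2b differed by -4.63 in RDL day 4. In CDL day 4 it read 397.4, 92.6 and 68.5, and the highest of these came from replicate 1, the array with ES marker signal. CDL minus RDL was called at day 6 for Nrarp alone among the 6 (1.25 ± 0.25, adjusted p = 0.00476), and its interaction was 1.69 (adjusted p = 0.00916). Of the 13 tested genes of Notch signal processing, 5 were called higher and 3 lower than in ES cells in CDL day 4, and 5 higher and 4 lower in RDL day 4, with medians of 0.12 and 0.18. Over all genes tested, 26.6% were higher and 29.6% lower in CDL day 4, and 27.6% and 29.5% in RDL day 4. Among the higher genes was Lfng, the clock's modulator of Notch receptors, at 1.78 in CDL and 1.83 in RDL.

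The Groucho co-repressors, which Hes and Hey proteins recruit through their C-terminal motifs, had 5 tested members. Tle1 was 0.78 ± 0.16 higher in CDL than in RDL at day 6 (adjusted p = 0.0055) and rose between days by 1.61 in CDL and 0.80 in RDL. Tle4 differed between days by -0.64 in CDL and -1.17 in RDL, in the other direction. Of 5 other Hes-related repressors listed, Bhlhe40 alone was tested, and Hes2, Hes3 and Bhlhe41 were dim. Of the 20 listed clock and wavefront genes outside the family, 18 were higher than in ES cells in CDL day 4 and 20 in RDL day 4, with medians of 2.59 and 2.16. The shares of all genes tested were 26.6% and 27.6%. The list holds Msgn1, whose reporter was used to sort the day 4 cells. At day 6, 14 were lower than at day 4 in CDL and 16 in RDL, and 1 was higher, in RDL. Of all genes tested, 22% were lower in CDL and 17.2% in RDL, and 17.4% and 13.8% were higher. Between media at day 4, Msgn1 was higher in CDL (0.77), and the anterior genes Mesp2 (-1.42) and Ripply2 (-1.69) were lower.

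**Figure D3:**
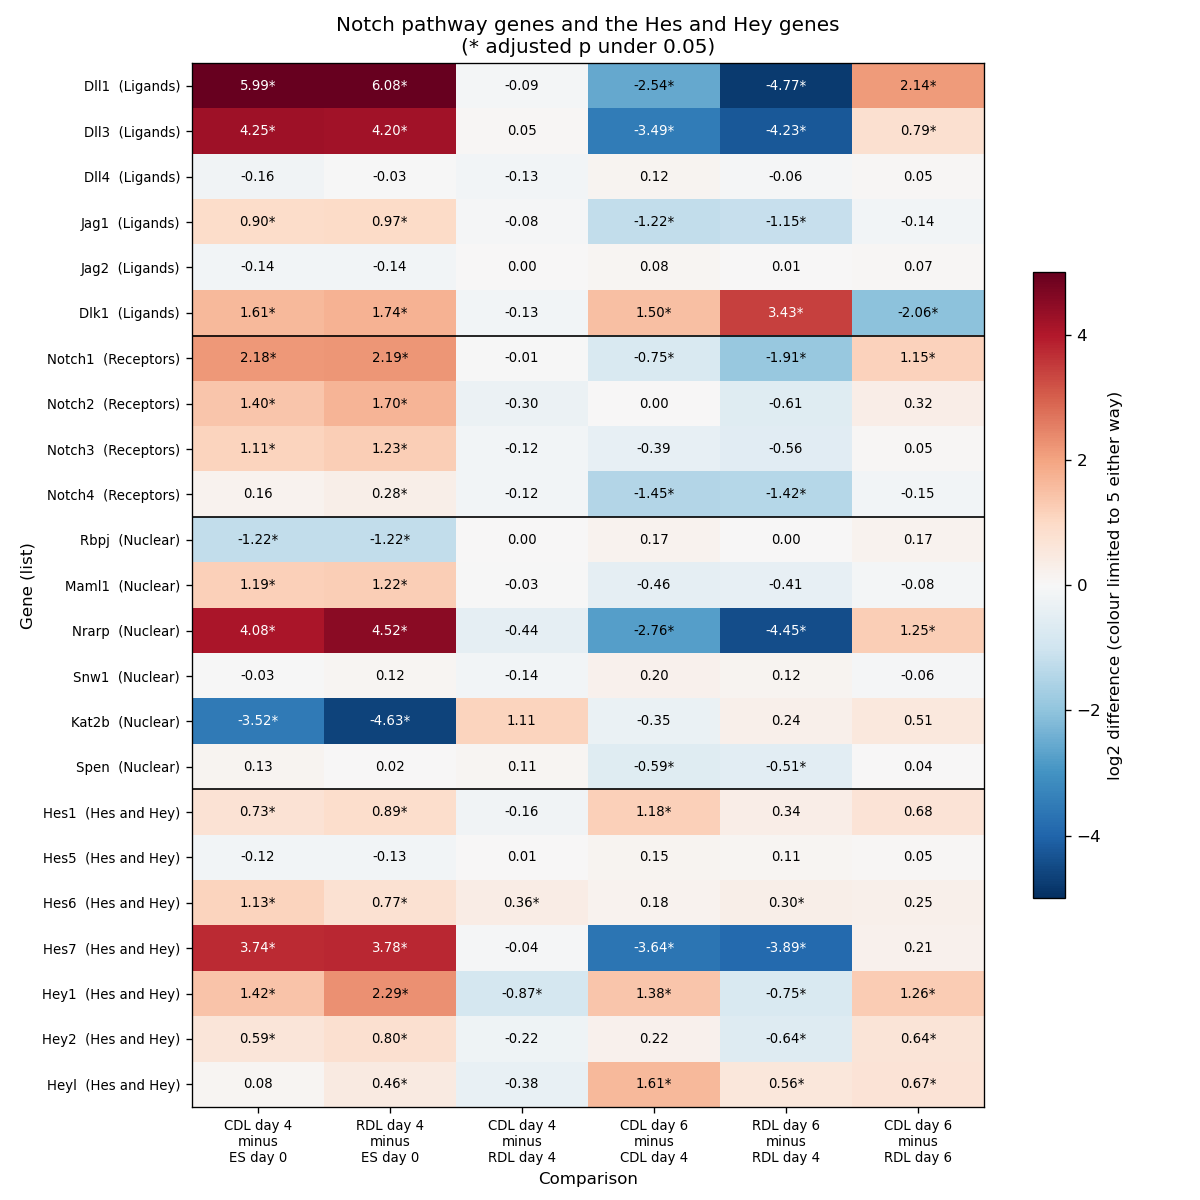
Differences on the log2(signal + 12.6) scale for Notch ligands, receptors and nuclear partners above and the 7 Hes and Hey genes below, in 6 comparisons, with an asterisk where adjusted p was under 0.05 and the colour scale held at 5 in each direction. In the column for CDL minus RDL at day 6, Dll1 (2.14), Notch1 (1.15), Nrarp (1.25) and Hey1 (1.26) are positive and Dlk1 (-2.06) is negative.

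Replicates of 1 group differed far more for some of the genes than for others. The pooled standard deviation within groups on the log2 scale was 0.427 for Hes1, at percentile 99.0 of the 12400 genes tested, whose median was 0.149. It was 0.268 for Hey1 (percentile 91.5), 0.231 for Hes7 (84.5), 0.223 for Heyl (82.7) and 0.193 for Hey2 (72.8). Hes5 (0.132) lay below the median, and the chosen Hes6 probe set (0.0814, percentile 7.48) was among the steadiest of those tested. The intervals of Hes1 were accordingly the widest of the family. Within groups the SD was 1.06 to 9.30% of the mean signal in the chosen Hes6 probe set. In the dimmer second Hes6 probe set it was 7.32 to 19.0%.

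In both media at day 4, replicate 1 had the lowest and replicate 3 the highest signal for Hes1, Hey1 and the second probe set of Hes5. Nrarp followed, at 911.3, 1616 and 1834 in CDL replicates 1 to 3 and 1465, 1912 and 2423 in RDL replicates 1 to 3. Id1, a target of BMP signalling, read 800.1, 1730 and 2267 in the same CDL arrays and 559.9, 1348 and 3461 in the same RDL arrays. Hes6 was highest in replicate 1 of both media, with replicate 3 lowest in CDL and replicate 2 lowest in RDL. Hes7 was highest in replicate 1 of RDL but lowest in replicate 1 of CDL. The labels do not say what a replicate number shared by 2 groups stands for, so no order is implied.

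Over the 12 arrays of sorted cells, deviations from the group mean of Hes1 correlated with those of Hey1 (r = 0.90, rho = 0.94), of the second Hes5 probe set (r = 0.93, rho = 0.94), of Nrarp (r = 0.89, rho = 0.87) and of Id3 (r = 0.90, rho = 0.90). Without the 2 arrays with the most extreme Hes1 deviation these were 0.80, 0.79, 0.82 and 0.82, and without both arrays that stood apart 0.92, 0.92, 0.83 and 0.91. Within the 6 day 4 arrays Hes1 and Hey1 gave r = 0.93 and within the 6 day 6 arrays 0.74. For Id1 the correlation was 0.94 at day 4 and 0.32 at day 6. Among other listed genes, r over the 12 arrays was 0.87 for Efna1, 0.83 for Fgf8 and 0.81 for Id2. It was -0.85 for Numb and -0.79 for Msgn1. The Notch genes Dll1 (0.56), Dll3 (0.45) and Notch1 (0.35) were less close to Hes1 than Nrarp was. The deviations of Heyl (0.59), Hes7 (0.36), Hey2 (0.21) and the brighter Hes5 probe set (0.07) followed Hes1 less closely, and that of Hes6 was negative (-0.68) but -0.20 without the 2 most extreme arrays. Over all 12400 genes the median correlation with Hes1 was -0.01, with a 5th percentile of -0.71 and a 95th of 0.67, and 1.51% of genes exceeded 0.8. The points of any pair of genes come from the same arrays and the same RNA, and CDL day 4 replicate 1, with its ES marker signal, is among them. These values are descriptive, since deviations sum to 0 within each group and the genes named were picked from the list with the results known.

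**Figure D4:**
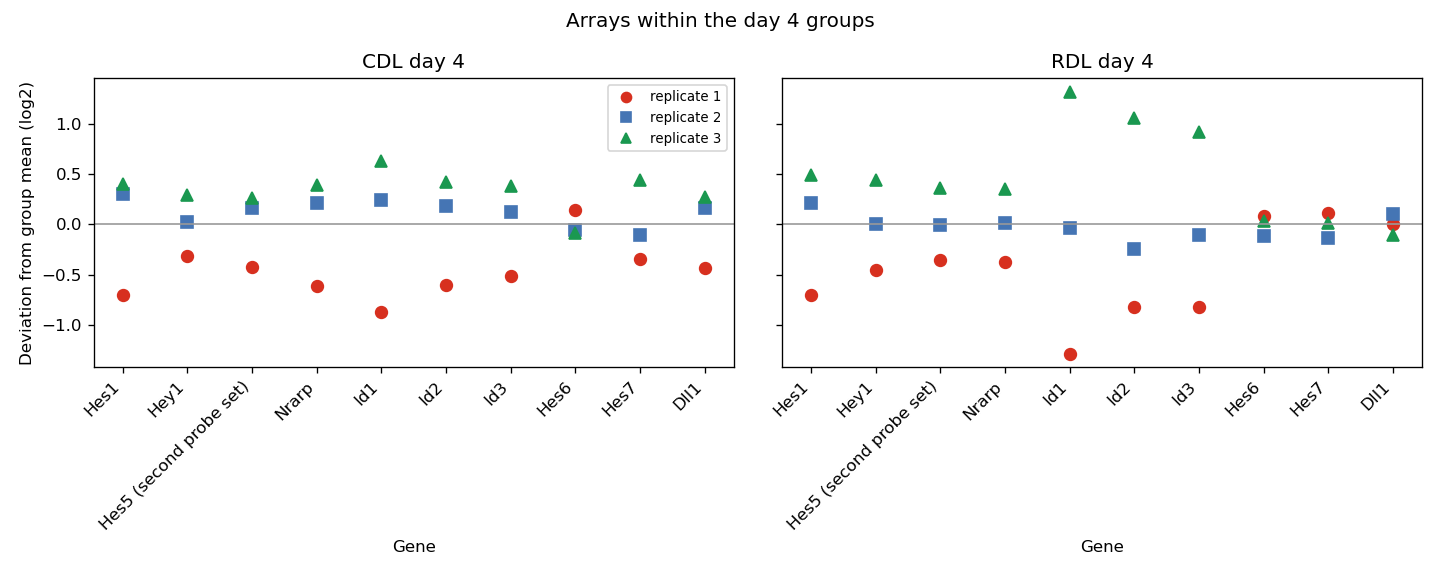
Deviation of each day 4 array from its group mean (log2 scale) for Hes1, Hey1, the second Hes5 probe set and other genes, CDL on the left and RDL on the right, with a symbol for each replicate number. Replicate 1 lies lowest and replicate 3 highest in both panels for the first 7 genes, whereas Hes6, Hes7 and Dll1 do not share 1 order in both media.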

How the data were processed

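RNA from 15 samples (5 groups of 3) was hybridised to Affymetrix mouse genome arrays. The deposited values are signal intensities on a linear scale, made by the authors with MAS5, per the submitters' processing notes. The software version is not stated there. Of 45101 probe sets, 64 were controls, 34945 carried 1 gene symbol, 932 carried several and 9160 were unnamed here. Where several single-symbol probe sets matched a gene, the brightest on average was used. Genes above the array's 50th percentile in at least 3 arrays were tested (12400 of 18193). The values log2(signal + 12.6) were fitted with limma 3.58.1 (R 4.3.3) as 5 group means, with moderated variances following a trend. The constant is the median over arrays of the 25th percentile, and folds of dim genes are understated by it. P-values were adjusted by the Benjamini-Hochberg method over all genes in each of 9 comparisons, with 0.05 as the threshold. The number of arrays limits the precision, and each p-value sets a difference against the moderated spread between these replicates.

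Genes outside the family were named if listed, or if among the 3 with the highest Pearson correlation with a member. That ranking passed over Riken clones and predicted genes. The members and lists were chosen with earlier results of these data known. Samples with the same replicate number deviated together for RDL day 6 and RDL day 4, with correlations of 0.219 to 0.285, and in no other comparison were all 3 correlations over 0.1. In 2 other comparisons all 3 arrays still correlated best with their own number. These were CDL day 4 against RDL day 4 (0.096 to 0.244) and CDL day 6 against CDL day 4 (0.072 to 0.139). In all, 15 alternatives left out an array and 12 changed another choice. Figures were drawn with matplotlib 3.10.9.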

Additional observations from a re-analysis of the deposited data

Results flagged for a closer look

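The CDL minus RDL difference at day 6 was set against that at day 4 in a single test, the interaction of medium and day, and limma called it for 3 of the 7 genes. For Hey1 the interaction was 2.13 (adjusted p = 0.000159), and all 3 CDL arrays lay above all 3 RDL arrays at day 6 and below them at day 4. For Heyl it was 1.05 (adjusted p = 0.0112), with the same arrangement of arrays in the chosen probe set. The day 4 difference of Heyl was not called (adjusted p = 0.267), and no CDL day 4 array exceeded the array median. The other Heyl probe sets gave interactions of 0.36 (adjusted p = 0.452) and 0.08 (adjusted p = 0.727), not called, and in both the media overlapped at day 4. For Hey2 it was 0.86 (adjusted p = 0.0186), and the media overlapped at day 4. Line, strain and sort changed together with the day and cannot be told apart from it.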

How the results depend on the processing

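Each count was recomputed with 15 arrays left out in turn and under 12 other settings, and for values that changed the cause was not tested. Filtering at the 75th percentile left 4 of the 7 genes tested. Of these it called 3 in CDL day 6 against ES, 1 in CDL day 6 against RDL day 6, 3 in RDL day 6 against RDL day 4 and 1 in the interaction. It called 361 genes in CDL day 4 against RDL day 4 and 435 in the interaction. For CDL day 4 against RDL day 4, where 2 members were called, the count was 1 with no filter, 0 with only the groups compared and 1 without both arrays that stood apart. Only the groups compared gave 1 member and 442 genes in CDL day 6 against RDL day 6. Array weights called 1700 genes between media at day 4, 4153 at day 6 and 3681 in the interaction, and leaving out both arrays that stood apart called 1776 at day 6 and 1237 in the interaction, against 547, 944 and 668 as reported. Leaving out 1 array gave 0 to 2 members and 341 to 797 genes at day 4 between media, 684 to 1512 genes at day 6 and 482 to 1216 in the interaction (both highest without RDL day 6 replicate 1), and 3 to 5 members in RDL day 6 against RDL day 4. Other probe sets reversed the sign of Hes5 in RDL day 4 minus ES (0.46) and RDL day 6 minus RDL day 4 (-0.55), and of Heyl in RDL day 4 minus ES (-0.15).

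With the replicate number as a block, 5 members and 4210 genes were called in RDL day 6 against RDL day 4, the comparison in which all 3 same-numbered pairs correlated over 0.1, against 5 and 3838 without it. The labels do not say what the numbers stand for. In the other comparisons the block moved 1 member call, that of Hes1 in CDL day 6 minus RDL day 6 (0.68, adjusted p = 0.0468), which made 4 members called, and 1143 genes were called. Same-numbered arrays of these 2 groups correlated between -0.241 and 0.609.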
